A study of Mus musculus with 8 samples.

Results

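Nuclear genes of oxidative phosphorylation were compared between mouse adipocyte cultures given DoxSa and cultures given DMSO. The members were the protein coding rows of the expression table whose symbol begins with Nduf, Uqcr, Cox4 to Cox8 or Atp5, or is Sdha, Sdhb, Sdhc or Sdhd. The rule itself uses no measured value, but it was set with earlier results of these data known. It gave 96 genes of the 22962 in the table, of which 17060 were protein coding. By the complex in which their products work, 49 belonged to complex I, 4 to complex II, 8 to complex III, 18 to complex IV and 17 to complex V. Complex I included 8 assembly factors (the Ndufaf genes) and 4 gene copies (Ndufab1-ps, Ndufb4b, Ndufb4c and Ndufs6b). Ndufa4 was counted in complex IV, where its protein is now known to sit, together with its relative Ndufa4l2.

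Oxidative phosphorylation takes place in the inner mitochondrial membrane. Complex I oxidises NADH and complex II oxidises succinate, complex III passes their electrons from ubiquinol to cytochrome c, complex IV passes them to oxygen, and complex V, the ATP synthase, uses the resulting proton gradient to make ATP. Most subunits are encoded in the nucleus and imported, and a few central ones are encoded by mitochondrial DNA. Adipocytes use this system to supply ATP and precursors for lipid synthesis, and brown adipocytes also use it to produce heat.

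The DoxSa group and the DMSO group held 4 libraries each. All were wild type cells of the stromal vascular fraction, the non-adipocyte cells of a digested tissue, taken from mouse gonadal tissue. They had been differentiated into adipocytes and received DoxSa or its solvent DMSO on day 6. The labels do not spell out DoxSa and give neither a dose nor a length of exposure, nor the number or age of the mice. Whether the 4 libraries of a group are independent cultures is not stated, and the p-values below cover only the spread among them, which may be technical.

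Read totals recovered from the values lay between 39213008 and 41365861 per library. Adipocyte markers were present throughout: the 8 markers (Adipoq, Plin1, Fabp4, Cidec, Pparg, Lpl, Lep and Retn) summed to 11010 to 11720 FPKM in DoxSa libraries and 11010 to 11360 FPKM in DMSO libraries. Most of each sum was Fabp4, at 8603 to 9187 FPKM in DoxSa libraries and 8512 to 8906 FPKM in DMSO libraries. FPKM is the read count of a gene scaled by its length and by the depth of the library. Macrophage markers were also abundant, with 8 of 8 tested and sums of 6390 to 6867 FPKM in DoxSa libraries and 5741 to 6658 FPKM in DMSO libraries. Most of these sums was Lyz2, at 4795 to 5263 FPKM in DoxSa libraries and 4328 to 5100 FPKM in DMSO libraries. In bulk samples such as these, fewer cells of a type and less RNA per cell cannot be told apart.

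Promoters of 77 of the 96 members were found in a RefSeq table of windows of 300 bases (250 before and 50 after the start of the gene; build GRCm38.p6). The windows of 4 members are shown because they contrast genes used in every tissue with the muscle and brown fat isoforms described below. Each line gives the 250 bases before the start, 5′ to 3′ on the strand of the gene, with capitals where the letters of a searched motif match. Cox6a1 lies at chr5:115348959-115349208 on the minus strand, Ndufaf8 at chr11:120098684-120098933 on the plus strand, Cox7a1 at chr7:30183921-30184170 on the plus strand and Cox8b at chr7:140900447-140900696 on the minus strand.
Cox6a1: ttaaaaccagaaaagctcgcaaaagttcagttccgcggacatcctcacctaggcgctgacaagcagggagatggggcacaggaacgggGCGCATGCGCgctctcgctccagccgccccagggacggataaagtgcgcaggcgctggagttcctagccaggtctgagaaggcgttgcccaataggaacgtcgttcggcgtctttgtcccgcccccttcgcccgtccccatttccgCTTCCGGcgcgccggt
Ndufaf8: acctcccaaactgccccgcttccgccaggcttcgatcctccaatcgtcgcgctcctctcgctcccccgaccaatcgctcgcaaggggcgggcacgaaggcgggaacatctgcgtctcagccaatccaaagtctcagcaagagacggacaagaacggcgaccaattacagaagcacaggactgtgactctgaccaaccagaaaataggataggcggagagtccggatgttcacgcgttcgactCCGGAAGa
Cox7a1: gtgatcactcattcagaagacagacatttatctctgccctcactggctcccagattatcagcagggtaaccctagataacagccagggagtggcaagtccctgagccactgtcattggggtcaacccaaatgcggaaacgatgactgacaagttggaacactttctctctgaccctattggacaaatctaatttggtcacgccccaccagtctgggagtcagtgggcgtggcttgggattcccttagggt
Cox8b: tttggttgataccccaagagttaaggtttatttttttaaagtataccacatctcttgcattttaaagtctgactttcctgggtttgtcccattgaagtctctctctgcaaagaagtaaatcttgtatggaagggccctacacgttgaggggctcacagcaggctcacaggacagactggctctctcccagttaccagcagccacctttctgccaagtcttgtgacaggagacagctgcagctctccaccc

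In Cox6a1, which encodes a complex IV subunit made in most tissues, the capitals are overlapping matches on both strands to GCATGCGC, the core of the site of NRF1, a transcription factor of mitochondrial genes, and a match to CCGGAAG, the core of sites of ETS factors such as GABPA. Ndufaf8 held the ETS letters 8 bases before its start. It also held AAGATGGCG, letters of the YY1 site, after its start, outside the printed stretch. Cox7a1 and Cox8b had no match before the start, and Cox8b had the TATA box letters TATAAA 5 bases into the gene. CpG dinucleotides numbered 32 in the window of Cox6a1, 27 in that of Ndufaf8, 7 in that of Cox7a1 and 2 in that of Cox8b.

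Searched on both strands, the NRF1 core was present in 12 of the 77 members (15.6%), against 6.11% of 9299 tested protein coding genes and 3.05% of all 27025 genes of the promoter table. The YY1 letters were present in 8 members (10.4%), against 3.73% and 1.64% of those sets. The ETS letters were present in 19 members (24.7%), against 21% and 9.93%, and the TATA box letters in 7 members (9.09%), against 8.74% and 15.7%. The median window held 20 CpG in members and 22 in tested protein coding genes. Matches of letters are a description of these windows and not evidence of binding. The median log2 fold change, DoxSa over DMSO, was -0.042 for the 32 members with NRF1, ETS or YY1 letters and -0.037 for the 45 with none of them.

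The comparison of DoxSa with DMSO addresses whether the compound goes with a different level of respiratory chain transcripts. No member passed the test in either direction. By limma on log2(FPKM + 1), 0 of 96 members had an adjusted p under 0.05 (Benjamini-Hochberg over 12060 tested genes), where 5.9% of all tested genes did, 3.88% as higher and 2.02% as lower. At an unadjusted p under 0.05 there were 12 of 96 members (12.5%), against 19.8% of tested genes. Those lower in DoxSa were 10 of 96 members (10.4%), against 7.24% of tested genes. Voom on the recovered reads also called 0 members, where it called 7.83% of tested genes.

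The differences were small. The log2 fold change, DoxSa over DMSO, lay within 0.1 of 0 for 85 of the 96 members, and its full range was -0.39 for Cox8b to 0.20 for Ndufaf5. For 83 members the 95% interval of the fold change lay within 1.2-fold in either direction (80.8% of all tested genes had so narrow an interval). For 95 members the interval lay within 1.5-fold, as it did for 97.9% of all tested genes. The exception among members was Cox8b. Adding 1 before the logarithm understates changes of low genes, and 89 members averaged at least 5 FPKM.

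Most of the small differences had the same sign. The fold change was below 0 for 69 of the 96 members (71.9%), against 43.3% of all tested genes, and its median was -0.037 for members and 0.012 for all tested genes. The groups did not overlap, with every DoxSa library below every DMSO library, for 7 members, among them Ndufv1, Ndufa9, Cox8a, Atp5b, Atp5d and Atp5g3, where 4.71% of tested genes did so. No member had every DoxSa library above every DMSO library, where 7.8% of tested genes did. The sign count rested in part on DMSO 3: without that library 61 members lay below 0 and the median was -0.012. By complex, the medians without DMSO 3 were -0.0045 for complex I, -0.030 for II, -0.040 for III, -0.012 for IV and 0.0023 for V.

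**Figure D1:**
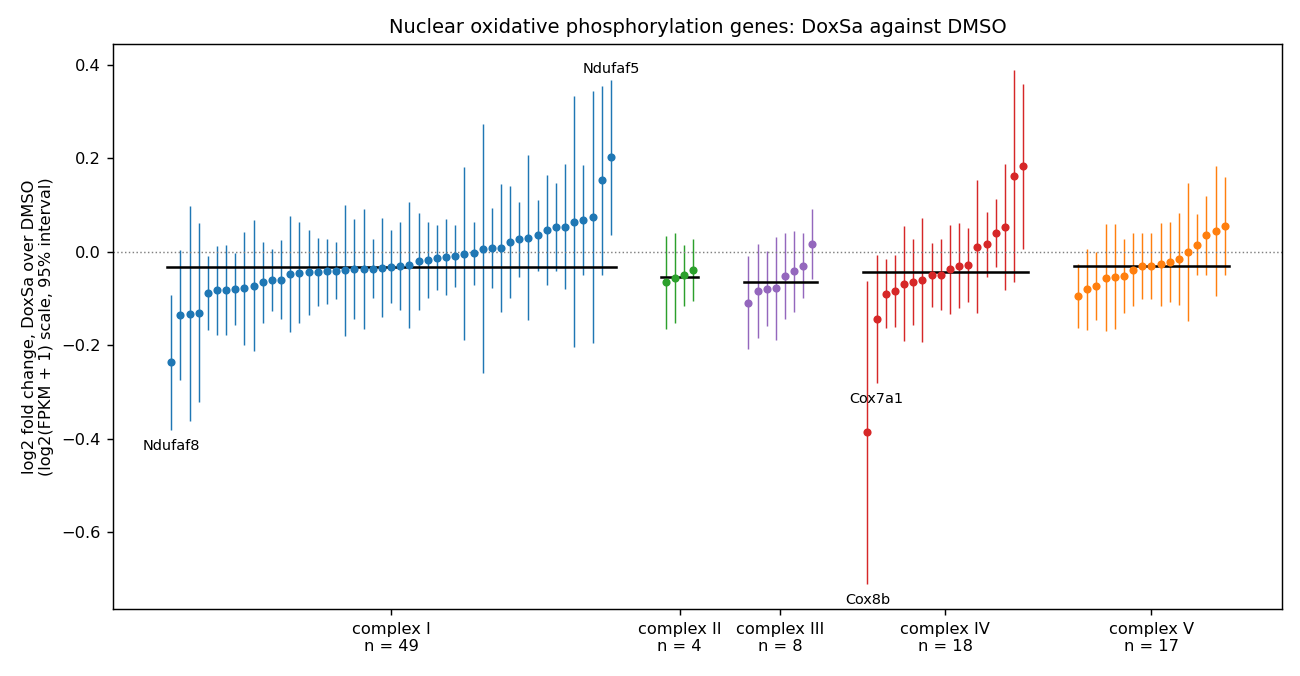
Log2 fold change, DoxSa over DMSO, of each of the 96 members by complex, on the log2(FPKM + 1) scale. Points are genes in order of fold change, vertical lines are 95% intervals of the limma fit, black bars are medians of a complex (-0.032, -0.053, -0.065, -0.043 and -0.030 for complexes I to V) and the dotted line marks 0; 85 of the 96 points lie within 0.1 of 0.

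Complex I, the NADH dehydrogenase, had 0 of 49 members called, 34 below 0 and a median log2 fold change of -0.032 (-0.0045 without DMSO 3). Its 7 nuclear core subunits carry the flavin, the iron-sulfur clusters and the quinone site. The lowest of them, Ndufs1, averaged 39.6 FPKM, and 6 of 7 lay below 0. Ndufv1, which binds NADH and the flavin, measured 83.7, 83.9, 82.4 and 81.7 FPKM in DoxSa libraries 1 to 4 and 85.1, 93.9, 88.5 and 85.6 FPKM in DMSO libraries 1 to 4. The groups were apart by about 1 FPKM at their nearest, and the log2 fold change was -0.09 ± 0.04 (SE, limma adjusted p = 0.202). Ndufs7, which carries the last iron-sulfur cluster of the chain, averaged 45.5 ± 1.65 FPKM in DoxSa and 48.2 ± 1.09 FPKM in DMSO (SD, n = 4), with a log2 fold change of -0.08 ± 0.04 (SE, limma adjusted p = 0.237).

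The 30 accessory subunits of complex I surround the core. Of these, 23 lay below 0, with fold changes between -0.14 and 0.06 on the log2 scale. Ndufa3, a small membrane subunit and the most abundant member of complex I, measured 361, 358, 357 and 365 FPKM in DoxSa libraries and 349, 341, 464 and 438 FPKM in DMSO libraries. Here DMSO 3 and DMSO 4 stood above all others while DMSO 1 and DMSO 2 were the lowest of the 8, and the groups overlapped (log2 fold change -0.13 ± 0.09, limma adjusted p = 0.453). Ndufa12, which interacts with the NADH-binding arm, ranged from 67.0 to 78.5 FPKM in DoxSa libraries and from 53.0 (DMSO 4) to 88.0 FPKM (DMSO 3) in DMSO libraries. Ndufa9 lay lower in DoxSa without overlap, at 110 ± 1.90 FPKM in DoxSa and 115 ± 2.57 FPKM in DMSO. DoxSa 2 (112.1 FPKM) and DMSO 1 (112.4 FPKM) nearly met, and it did not pass the test (log2 fold change -0.06 ± 0.03, limma adjusted p = 0.296).

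The assembly factors, which help to build complex I and leave it afterwards, were low. They averaged from 0.853 FPKM (Ndufaf6) to 15.8 FPKM (Ndufaf8), and 4 of 8 lay below 0. Ndufaf8, known in human cells as a partner of NDUFAF5, had the lowest fold change of complex I and the smallest adjusted p of all members. It measured 13.3, 15.8, 13.9 and 14.7 FPKM in DoxSa libraries and 17.0, 19.3, 17.0 and 15.5 FPKM in DMSO libraries. DoxSa 2 lay above DMSO 4, so the groups overlapped by a pair of libraries, and the log2 fold change was -0.24 ± 0.07 (SE, limma adjusted p = 0.0613). Ndufaf8 was called in 6 of 18 other settings, so its call depended on the processing. Ndufaf5, an enzyme that modifies Ndufs7 during assembly, lay in the other direction at 3.30 ± 0.334 FPKM in DoxSa and 2.74 ± 0.339 FPKM in DMSO (log2 fold change 0.20 ± 0.08, limma adjusted p = 0.161).

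The copies of complex I genes were low and varied more. Ndufab1-ps, a copy of the acyl carrier gene Ndufab1, had the highest fold change of complex I members above 5 FPKM. It measured 6.36, 8.71, 6.25 and 7.0045 FPKM in DoxSa libraries and 5.93, 6.14, 7.20 and 5.69 FPKM in DMSO libraries, with DoxSa 2 apart from the rest (log2 fold change 0.15 ± 0.09, limma adjusted p = 0.403). Reads of such copies and of their parent genes can be split in counting, so their values are uncertain. The same holds for Ndufb4, Ndufb4b and Ndufb4c and for Ndufs6 and Ndufs6b.

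Complex II, succinate dehydrogenase, is the only complex encoded wholly in the nucleus. Its 4 subunits were expressed at like levels, from 139 FPKM (Sdhb) to 215 FPKM (Sdha) on average, and all 4 lay below 0 with 0 called. Sdhd, a membrane anchor, had the lowest fold change. It measured 146, 138, 137 and 146 FPKM in DoxSa libraries and 143, 144, 162 and 145 FPKM in DMSO libraries, with DMSO 3 alone above the rest (log2 fold change -0.07 ± 0.05, 95% interval -0.16 to 0.03). Sdha, which holds the flavin, averaged 212 ± 4.86 FPKM in DoxSa and 218 ± 3.32 FPKM in DMSO. The groups overlapped for all 4 genes.

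Complex III, the cytochrome bc1 complex, had 7 of 8 members below 0, a median log2 fold change of -0.065 and 0 called. Uqcr10, a small subunit near cytochrome c1, measured 281, 277, 285 and 289 FPKM in DoxSa libraries and 316, 319, 311 and 276 FPKM in DMSO libraries. Of the DMSO libraries, 3 lay above every DoxSa library and DMSO 4 lay below them all (log2 fold change -0.11 ± 0.05, limma adjusted p = 0.2096). Without DMSO 4 it was called lower (log2 fold change -0.16, limma adjusted p = 0.0220). Uqcrh, the hinge protein that helps cytochrome c bind and the most abundant member of the complex, averaged 384 ± 17.1 FPKM in DoxSa and 406 ± 27.4 FPKM in DMSO. The Rieske iron-sulfur protein gene Uqcrfs1 averaged 109 ± 4.17 FPKM in DoxSa and 113 ± 5.54 FPKM in DMSO. Uqcrb, which contacts the quinone site, was the only member above 0, at 249.4 ± 4.33 FPKM in DoxSa and 246.8 ± 9.04 FPKM in DMSO.

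Complex IV, cytochrome c oxidase, ranged in level from 2.08 FPKM (Cox6b2) to 845 FPKM (Cox6b1). Of 18 members, 12 lay below 0, the median was -0.043 (-0.012 without DMSO 3) and 0 were called. Cox6b1, which links the monomers of the enzyme dimer, was the most abundant of all 96 members. It measured 840, 828, 796 and 840 FPKM in DoxSa libraries and 812, 791, 981 and 873 FPKM in DMSO libraries, again with DMSO 3 highest. Cox8a measured 452, 467, 473 and 489 FPKM in DoxSa libraries and 497, 504, 510 and 490 FPKM in DMSO libraries. The groups did not overlap but DoxSa 4 and DMSO 4 nearly met (log2 fold change -0.09 ± 0.03, limma adjusted p = 0.165). Cox6a1 measured 517, 522, 546 and 543 FPKM in DoxSa libraries and 585, 565, 563 and 543 FPKM in DMSO libraries, with the lowest DMSO library under the highest DoxSa library (log2 fold change -0.08 ± 0.04, limma adjusted p = 0.212).

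Several complex IV subunits exist as isoforms. Cox7a1 and Cox8b are the isoforms of muscle and brown fat, and Cox7a2 and Cox8a their general partners. Cox8b had the lowest fold change of all 96 members. It measured 5.46, 6.38, 9.15 and 8.40 FPKM in DoxSa libraries and 8.76, 7.94, 12.1 and 10.6 FPKM in DMSO libraries. The groups overlapped, since DoxSa 3 and DoxSa 4 lay above DMSO 2, and the log2 fold change was -0.39 ± 0.15 (SE, limma adjusted p = 0.168). Cox7a1 measured 146, 145, 143 and 150 FPKM in DoxSa libraries and 143, 153, 173 and 179 FPKM in DMSO libraries. The 4 DoxSa libraries were close together, while the DMSO libraries spread from just below them to well above them (log2 fold change -0.14 ± 0.06, limma adjusted p = 0.225). Without DMSO 1, Cox7a1 was called lower (log2 fold change -0.20, limma adjusted p = 0.0449).

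As a share of the FPKM of an isoform and its partner, Cox7a1 held 39.9 ± 0.806% in DoxSa and 41.2 ± 1.70% in DMSO (SD, n = 4). Cox8b held 1.53 ± 0.319% of the sum with Cox8a in DoxSa and 1.93 ± 0.352% in DMSO. Cox7a2 itself averaged 219 ± 8.81 FPKM in DoxSa and 231 ± 19.9 FPKM in DMSO. Other brown or beige fat markers were low. Ucp1, the uncoupling protein that lets brown fat make heat, lay between 0 and 0.0892 FPKM in all libraries, and Cidea and Dio2 averaged 0.178 and 0.0926 FPKM in DoxSa and 0.140 and 0.0643 FPKM in DMSO. Elovl3 averaged 0.550 FPKM in DoxSa and 0.634 FPKM in DMSO, and Prdm16 averaged 0.835 FPKM in DoxSa and 0.804 FPKM in DMSO; both were tested and not called. Markers of skeletal muscle, the other tissue of these isoforms, summed to 2.65 to 2.96 FPKM over 6 genes in DoxSa libraries and 2.85 to 4.41 FPKM in DMSO libraries.

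None of the remaining isoforms passed the test. Cox4i2, a regulatory isoform of Cox4i1 known for its induction by low oxygen in lung, averaged 14.4 ± 0.815 FPKM in DoxSa and 13.9 ± 1.28 FPKM in DMSO, and Cox4i1 734 ± 6.46 and 760 ± 27.1 FPKM in those groups. The muscle isoform Cox6a2 averaged 2.97 ± 0.541 FPKM in DoxSa and 2.53 ± 0.380 FPKM in DMSO (log2 fold change 0.16 ± 0.10, limma adjusted p = 0.433). The testis isoform Cox6b2 averaged 2.27 ± 0.334 FPKM in DoxSa and 1.88 ± 0.215 FPKM in DMSO (log2 fold change 0.18 ± 0.08, limma adjusted p = 0.233). The fold changes of Cox6b2 and Cox6a2 were the highest of complex IV. Cox7a2l, which joins complexes III and IV in supercomplexes, averaged 124 ± 3.002 FPKM in DoxSa and 123 ± 2.99 FPKM in DMSO.

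Ndufa4l2, a relative of Ndufa4 known as a target of the hypoxia factor HIF1, was the more abundant of that pair. It measured 376, 430, 409 and 413 FPKM in DoxSa libraries and 435, 432, 419 and 416 FPKM in DMSO libraries, with DoxSa 1 the lowest of the 8 and the groups overlapping. Ndufa4 averaged 222 ± 10.04 FPKM in DoxSa and 226 ± 9.06 FPKM in DMSO. Ndufa4l2 thus held 64.7 ± 1.98% of the sum of the pair in DoxSa and 65.3 ± 1.3% in DMSO.

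**Figure D2:**
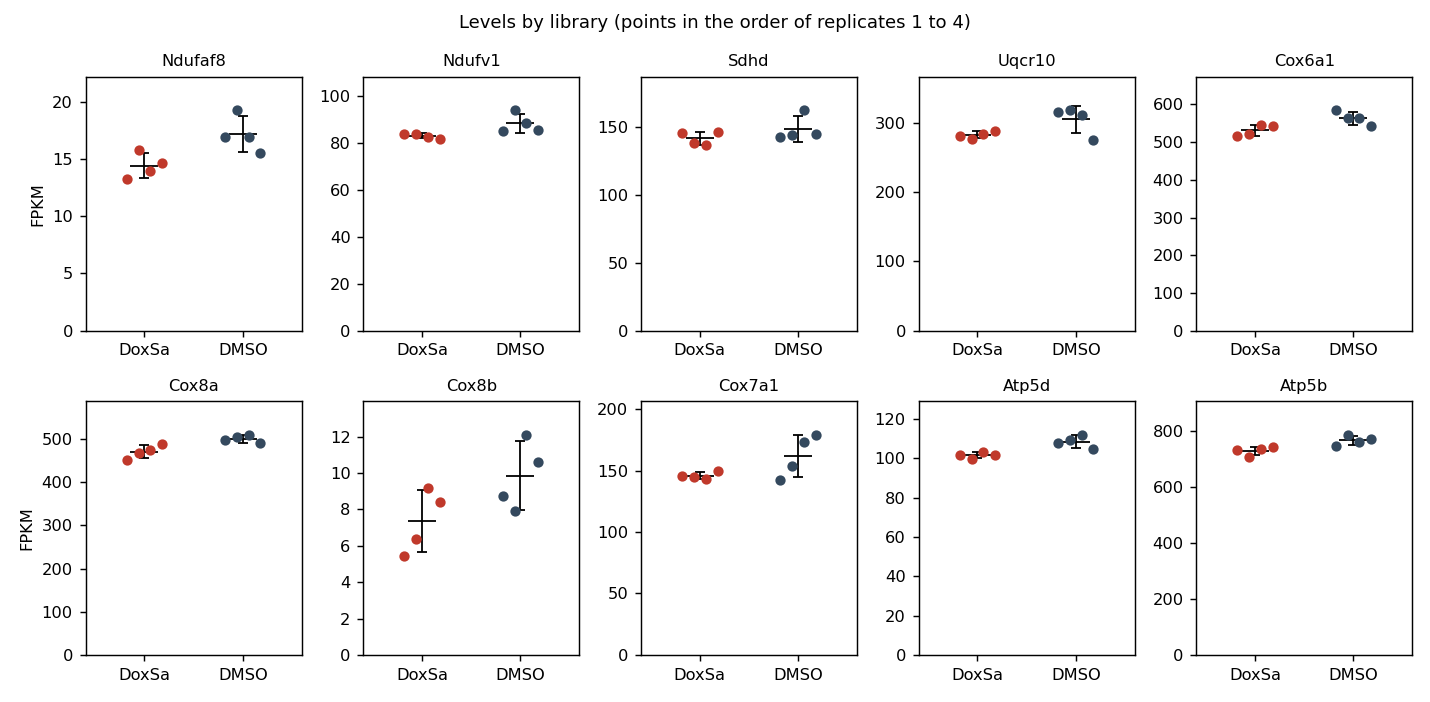
FPKM of 10 members in each library, DoxSa left (red) and DMSO right (dark), with points in the order of replicates 1 to 4. Horizontal bars are means and whiskers SD (n = 4 per group), and each axis starts at 0; the groups are apart for Ndufv1, Cox8a, Atp5d and Atp5b and overlap for the others.

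Complex V, the ATP synthase, had 0 of 17 members called, 12 below 0 and a median log2 fold change of -0.030. The 5 genes of its F1 head (Atp5a1, Atp5b, Atp5c1, Atp5d and Atp5e) all lay below 0. Atp5b, the catalytic beta subunit and the most abundant member of the complex, measured 732, 707, 735 and 742 FPKM in DoxSa libraries and 747, 788, 763 and 771 FPKM in DMSO libraries, without overlap (log2 fold change -0.07 ± 0.03, limma adjusted p = 0.2504). Atp5d, the delta subunit of the central stalk, measured 102, 99.4, 103 and 102 FPKM in DoxSa libraries and 108, 109, 112 and 105 FPKM in DMSO libraries. The groups did not overlap, and the log2 fold change of Atp5d, at -0.09 ± 0.03 (limma adjusted p = 0.116), was the lowest of complex V. The alpha subunit gene Atp5a1 averaged 365 ± 3.68 FPKM in DoxSa and 373 ± 11.2 FPKM in DMSO with overlap.

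The rotor ring of complex V is made of subunit c, for which Atp5g1, Atp5g2 and Atp5g3 encode the same mature protein with different import sequences. Atp5g3 averaged 247 ± 4.56 FPKM in DoxSa and 262 ± 13.5 FPKM in DMSO without overlap (limma adjusted p = 0.282). Atp5g2 averaged 198 ± 7.40 FPKM in DoxSa and 193 ± 7.32 FPKM in DMSO, and Atp5g1 averaged 55.4 ± 1.81 and 53.9 ± 5.82 FPKM in those groups. The peripheral stalk genes Atp5pb, Atp5h, Atp5j and Atp5o had log2 fold changes between -0.04 and 0.01. Atp5mpl, a small membrane subunit, had the highest fold change of the complex, at 104 ± 5.85 FPKM in DoxSa and 100.07 ± 5.09 FPKM in DMSO. Atpif1, the inhibitor of ATP hydrolysis by the enzyme and not a member by its symbol, averaged 67.3 ± 1.74 FPKM in DoxSa and 64.9 ± 2.77 FPKM in DMSO (limma adjusted p = 0.501).

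Summed over all 96 members, the transcripts took 3.90, 3.81, 3.84 and 3.90% of the FPKM of DoxSa libraries 1 to 4 and 3.94, 3.99, 4.16 and 4.03% of DMSO libraries 1 to 4. Every DoxSa library thus lay below every DMSO library. DMSO 3 was the highest of the 8 libraries, so setting it aside could not make the groups overlap. The means were 3.86 ± 0.0449% in DoxSa and 4.03 ± 0.0920% in DMSO (SD, n = 4), a description with no test. Complex IV took 1.24 ± 0.0147% in DoxSa and 1.302 ± 0.0190% in DMSO, and complex III 0.417 ± 0.00959% in DoxSa and 0.440 ± 0.0115% in DMSO, without overlap in either. The shares of complexes I, II and V overlapped between groups. Such sums follow the most abundant genes, and per gene the median level by library did not separate the groups: relative to the mean of the 8 libraries it was 0.008, -0.018, -0.040 and -0.018 (log2) in DoxSa libraries 1 to 4 and -0.014, -0.013, 0.073 and 0.002 in DMSO libraries 1 to 4.

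**Figure D3:**
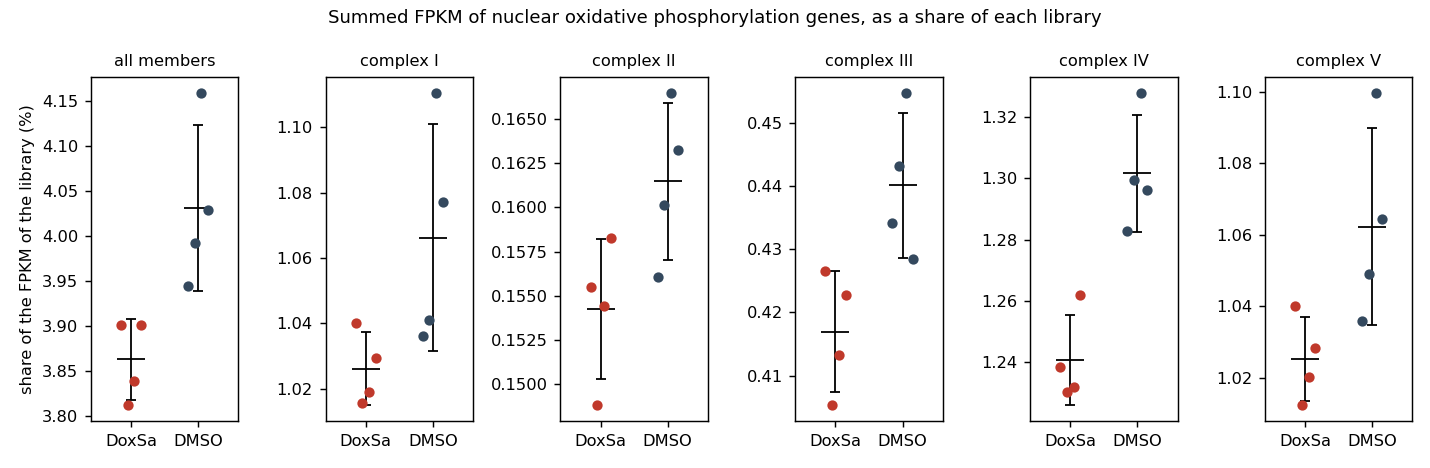
Summed FPKM of all 96 members and of each complex as a percentage of the FPKM of the library, DoxSa left (red) and DMSO right (dark), with 1 point per library, bars for the mean and whiskers for SD (n = 4 per group). Axes do not start at 0; the groups are apart for all members together (3.86% and 4.03% on average), for complex III and for complex IV.

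These median levels had an SD of 0.02 (log2) among DoxSa libraries and 0.04 among DMSO libraries. DMSO 3 was the highest of the 8 libraries for 46 of 96 members (47.9%), against 12.3% of all tested genes. It was highest for 12 of 17 members of complex V but for 1 of 7 core subunits of complex I. Many members are short: their median length was 782 bases, against 3492 bases for all tested genes, and 41 of them were under 700 bases. In DMSO 3 the median level relative to the mean of the 8 libraries was 0.10 (log2) for these 41 members and 0.05 for the 55 longer ones. It was 0.06 for 308 other tested genes under 700 bases. Those 308 genes also stood at 0.06 in DoxSa 2, where the 41 short members were at -0.010. By group, the other short genes averaged 0.012 in DoxSa and -0.013 in DMSO, and the short members -0.018 and 0.016. The part of gene length in the spread of the members was not tested further.

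**Figure D4:**
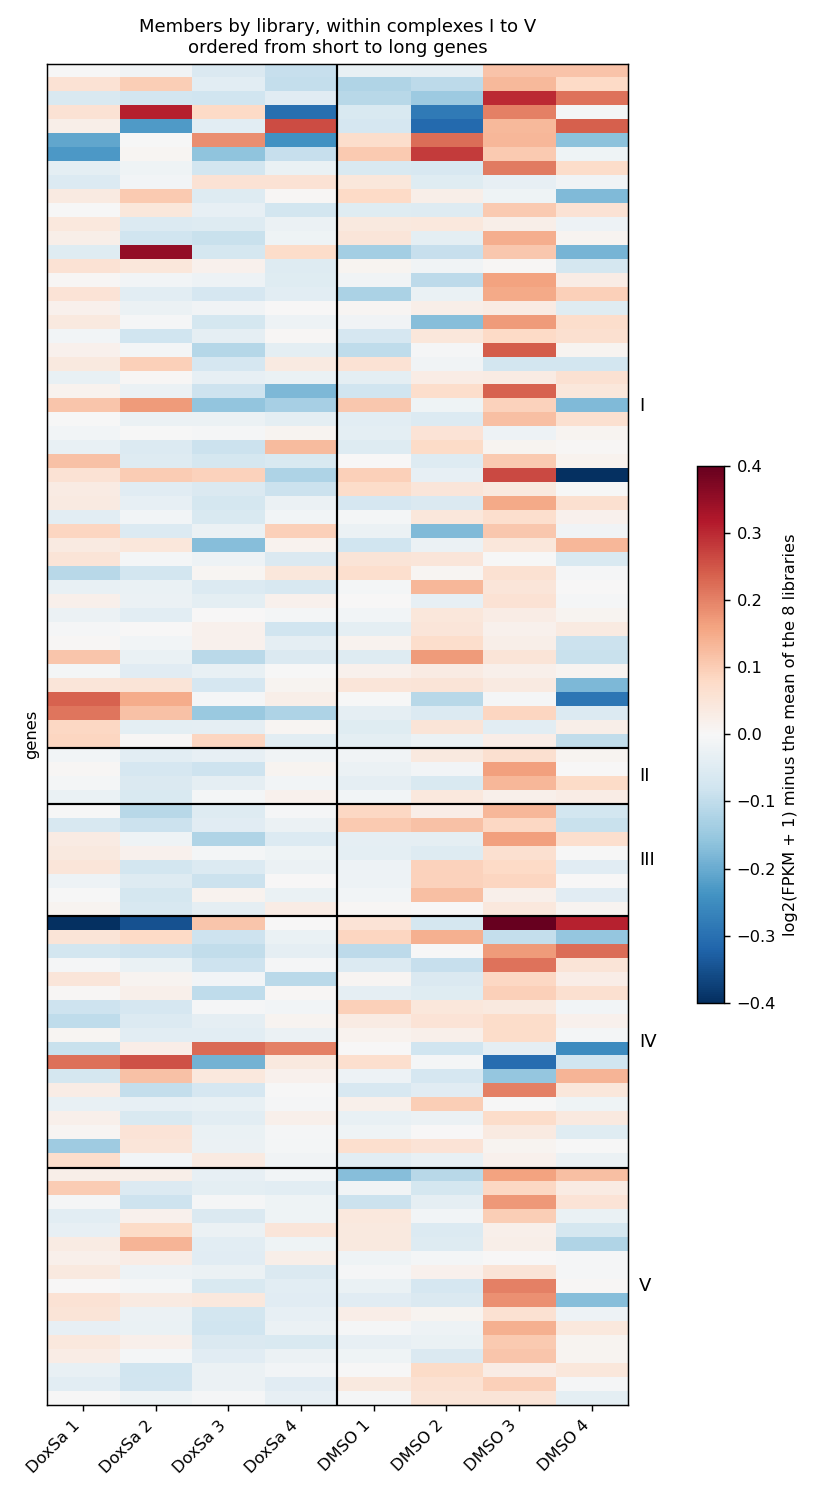
Level of each of the 96 members (rows) in each library as log2(FPKM + 1) minus its mean over the 8 libraries, with DoxSa libraries left of the black line and complexes I to V from top to bottom. Within a complex, genes run from short to long; red is above and blue below the mean, colours stop at 0.4, and the column of DMSO 3 is red for most members.

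Mitochondrial DNA encodes 13 subunits that join the nuclear ones in complexes I, III, IV and V. None was called, where 5.9% of all tested genes were. Of the 13, 10 lay below 0, against 43.3% of all tested genes, and the median log2 fold change was -0.18. An unadjusted limma p under 0.05 was found for 4 of 13, against 19.8% of all tested genes. CYTB, the cytochrome b of complex III, measured 3278, 3104, 2924 and 3385 FPKM in DoxSa libraries and 3414, 3452, 4120 and 4125 FPKM in DMSO libraries. The groups did not overlap, though DoxSa 4 and DMSO 1 lay close (log2 fold change -0.25 ± 0.07, limma adjusted p = 0.0785). COX1, the catalytic subunit of complex IV, averaged 13567 ± 318 FPKM in DoxSa and 14487 ± 421 FPKM in DMSO, also without overlap (log2 fold change -0.09 ± 0.05, limma adjusted p = 0.2896). Over all tested genes, 4.71% had every DoxSa library below every DMSO library.

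COX2 and COX3, the other mitochondrial subunits of complex IV, were listed far lower than COX1. COX2 measured 98.0, 96.6, 94.1 and 104 FPKM in DoxSa libraries and 99.8, 129, 135 and 171 FPKM in DMSO libraries (log2 fold change -0.42 ± 0.12, limma adjusted p = 0.0709). COX3 averaged 70.9 ± 7.49 FPKM in DoxSa and 99.04 ± 21.0 FPKM in DMSO (log2 fold change -0.46 ± 0.13, limma adjusted p = 0.0600). In both genes the DoxSa libraries were closer together than the DMSO libraries, and the groups overlapped. ATP6, of the proton channel of complex V, measured 54.4, 47.3, 44.4 and 49.7 FPKM in DoxSa libraries and 68.3, 59.6, 154 and 62.0 FPKM in DMSO libraries, where DMSO 3 was far above the rest and the groups did not overlap. Without DMSO 3 the log2 fold change of ATP6 was -0.37 in place of -0.68, and ATP6 was called lower (limma adjusted p = 0.0162). The complex I subunits ND1 to ND6 and ND4L had log2 fold changes between -0.39 (ND6) and 0.26 (ND4L), all with overlap. ND6 measured 171 FPKM in DMSO 4, and without that library its log2 fold change was -0.13, and without DMSO 1 it was -0.58. Without DoxSa 3 that of ND4L was 0.10, without DMSO 1 it was 0.16 and without DMSO 2 it was 0.17. ND1 averaged 3008 ± 250.2 FPKM in DoxSa and 3409 ± 413 FPKM in DMSO (limma adjusted p = 0.278). ATP8 measured 10.5, 15.7, 13.1 and 13.9 FPKM in DoxSa libraries and 10.1, 11.9, 23.5 and 142 FPKM in DMSO libraries, where DMSO 4 alone was high. ATP8 overlaps ATP6, ND4L overlaps ND4, and nuclear copies of mitochondrial genes can take reads, so the levels of these genes relative to each other are uncertain.

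**Figure D5:**
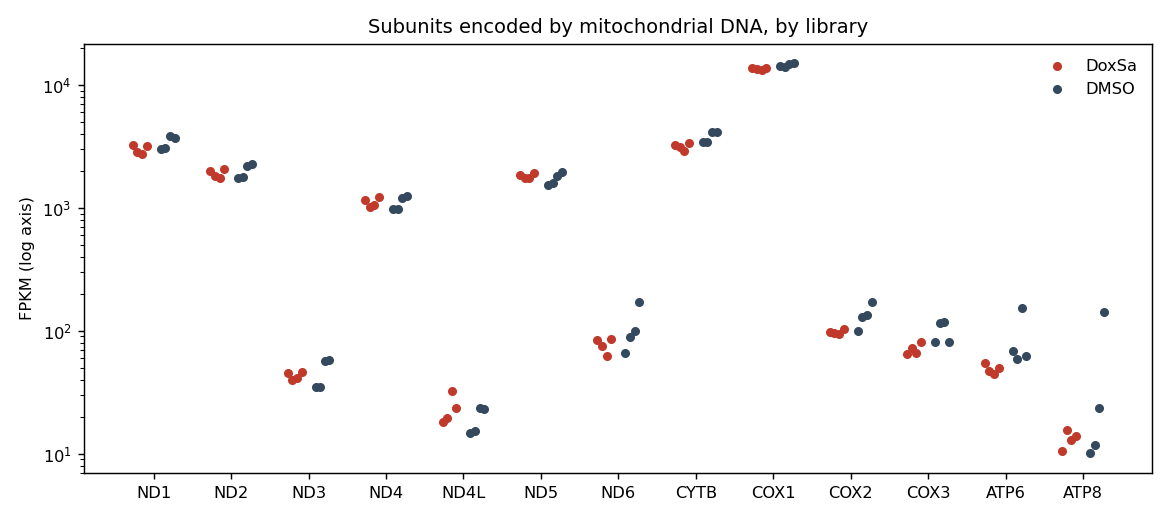
FPKM of the 13 subunits encoded by mitochondrial DNA in each library on a log axis, DoxSa (red) left of DMSO (dark) within each gene. COX1 averages 13567 FPKM in DoxSa and 14487 FPKM in DMSO, and single DMSO libraries stand apart for ATP6 and ATP8.

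Other genes of the pathway came from 12 lists, with 147 genes tested, of which 1 was called (0.68%), against 5.9% of all tested genes. The called gene was Pcx, pyruvate carboxylase, which feeds oxaloacetate into the citric acid cycle. It fell to 159, 142, 165 and 163 FPKM in DoxSa libraries, against 175, 186, 174 and 192 FPKM in DMSO libraries, without overlap (log2 fold change -0.21 ± 0.05, limma adjusted p = 0.0372). Over all tested genes, 4.71% were lower in DoxSa without overlap. Pcx lost its call in 9 of 18 other settings, among them without DoxSa 1, DoxSa 2, DMSO 2 or DMSO 4. Of the 19 citric acid cycle and pyruvate genes tested, 15 lay below 0, against 43.3% of all tested genes, with a median log2 fold change of -0.042.

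In the remaining lists no gene was called, and the 134 nuclear genes of all lists had a median log2 fold change of 0.003 with 61 below 0. The lists covered assembly factors of complex I outside the rule (11 tested, median 0.003), of complex II (4 tested, -0.006) and of complex V (5 tested, -0.002). Complex IV assembly factors had a median of 0.021 over 24 tested, and cytochrome c1 with the complex III assembly factors 0.024 over 10. Cyc1, the cytochrome c1 of complex III, averaged 89.2 ± 3.07 FPKM in DoxSa and 92.9 ± 1.48 FPKM in DMSO, with overlap. Cycs, the mobile carrier cytochrome c, averaged 44.2 ± 2.56 FPKM in DoxSa and 44.4 ± 1.52 FPKM in DMSO. Ubiquinone synthesis genes and electron carriers had a median of 0.006 over 14 tested, other genes of electron entry 0.002 over 9, carriers and uncouplers 0.026 over 8 and inner membrane structure 0.017 over 13.

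Regulators of mitochondrial gene expression had a median log2 fold change of 0.016 over 17 tested, with 0 called. Nrf1, whose site was searched above, averaged 1.28 ± 0.0489 FPKM in DoxSa and 1.16 ± 0.0594 FPKM in DMSO without overlap, but did not pass the test (log2 fold change 0.07 ± 0.05, limma adjusted p = 0.430). Of all tested genes, 7.8% were higher in DoxSa without overlap. Gabpa averaged 11.7 ± 0.826 FPKM in DoxSa and 10.9 ± 0.784 FPKM in DMSO, and Tfam, which packages and transcribes mitochondrial DNA, 7.38 ± 0.278 and 7.01 ± 0.242 FPKM in those groups. Esrra, a nuclear receptor of mitochondrial genes, averaged 13.1 ± 0.358 FPKM in DoxSa and 12.9 ± 0.416 FPKM in DMSO. The coactivator genes were low: Ppargc1a averaged 0.283 and 0.325 FPKM in DoxSa and DMSO, below the minimum for testing, and Ppargc1b 0.884 and 0.931 FPKM. Ucp2, an uncoupling protein relative that macrophages express, averaged 110 ± 1.95 FPKM in DoxSa and 106 ± 3.59 FPKM in DMSO.

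Markers of cell types were set beside these values. All 8 macrophage markers had a fold change above 0 (median 0.11, log2) and 1 of them, Cd14, rose (0.36 ± 0.07, limma adjusted p = 0.0154). Of the 8 adipocyte markers 7 lay below 0 (median -0.056) and 1, the adipokine gene Retn, fell (-0.20 ± 0.04, limma adjusted p = 0.0151). Over all tested genes, 6839 of 12060 lay above 0, 43.3% lay below 0 and 5.9% were called. With no filter on low values neither Cd14 nor Retn was called (limma adjusted p = 0.0933 for Cd14 and 0.0650 for Retn, the highest of 18 alternatives, with lowest values of 0.00202 and 0.00439). Of 6 tested progenitor and fibroblast markers 1, Pdgfrb, fell (-0.23 ± 0.04, limma adjusted p = 0.00383), and the list summed to 2829 to 3236 FPKM in DoxSa libraries and 3040 to 3241 FPKM in DMSO libraries. Endothelial markers summed to at most 1.96 FPKM in DoxSa libraries and 1.78 FPKM in DMSO libraries. Mesothelial markers summed to 11.1 to 15.6 FPKM in DoxSa libraries and 16.25 to 16.9 FPKM in DMSO libraries. Nearly all of that was Krt19, which averaged 13.9 FPKM in DoxSa and 16.5 FPKM in DMSO (limma adjusted p = 0.113). The other mesothelial markers, Msln, Upk3b and Lrrn4, reached at most 0.1234 FPKM in any library. No marker of these lists in the table was at 0 in all libraries. The part of cell makeup in the small differences of the respiratory chain genes was not tested.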

How the data were processed

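The data were 8 RNA libraries, 4 with DoxSa and 4 with DMSO, grouped by their titles. TRIzol served for extraction of total RNA and a VAHTS Universal V6 kit for the libraries, per the labels' protocols. The submitters' processing notes name HISAT2, HTSeq and the GRCm39 build. Tool versions, the annotation and the strand setting were not found there or in the labels. The authors deposited FPKM values, read counts scaled by gene length and library depth, as a single table. Every value column was used. FPKM carries no correction for abundant genes that take up reads, so shifts of a few percent depend on scaling. Overlapping or near-identical genes, including processed pseudogenes of many members, can share reads.

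Low FPKM values step by the worth of 1 read, which gave library totals, gene lengths and whole reads (12060 of 12060 tested genes whole in all libraries, within 0.001). The smallest length that made all values of a gene whole was taken. A length and its reads can therefore be too low by a common factor, and whole reads alone do not show that they are right. A gene was tested where its mean over the libraries reached 0.5 FPKM, with limma 3.58.1 in R 4.3.3 (lmFit and eBayes with intensity trend) on log2(FPKM + 1), without covariates. SE and 95% intervals are those of the moderated fit, and p-values were adjusted by Benjamini-Hochberg over all tested genes with a threshold of 0.05. The fit was tested on simulated data. Python 3.11.15, numpy 2.4.6, pandas 2.3.3 and matplotlib 3.10.9 were used otherwise. Alternatives covered the pseudocount, filters, trend, library weights, scalings, voom on recovered reads, a replicate block and leaving out each library.

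Members, lists and motifs were chosen with earlier results of these data known. Named were any called member, in each complex the most abundant member and those with the highest and lowest fold change at 5 FPKM or more, fixed isoform groups, called list genes and a fixed panel. Ndufv1, Ndufs7, Ndufa9, Ndufa12, Ndufaf5, Uqcrfs1, Atp5a1, the other genes without group overlap and genes named at the ends of ranges were added after their values were seen. The values of 1 member are not reported here.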

Additional observations from a re-analysis of the deposited data

Results flagged for a closer look

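In 7 of 128 checked groups of 4 libraries, 1 library stood far from the other 3; chance alone flags about 1 in 20 groups. Among members these were Sdhd in DMSO 3 (162.5 FPKM, with the others at 142.8 to 145.3), Uqcr10 in DMSO 4 (276.1 FPKM, with the others at 311.4 to 318.6) and Cox4i1 in DoxSa 4 (744.2 FPKM, with the others at 730.7 to 731.7). Among mitochondrial DNA genes they were ATP6 in DMSO 3 (154.5 FPKM, with the others at 59.58 to 68.34) and ATP8 in DMSO 4 (142.4 FPKM, with the others at 10.08 to 23.49). Retn in DoxSa 3 stood at 342.6 FPKM, with the others at 334.4 to 335.5, and Ucp2 in DoxSa 3 at 107 FPKM, with the others at 110.5 to 111.1.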

How the results depend on the processing

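The median log2 fold change of the members stayed below 0 in every setting tried. It was -0.039 for the 77 structural subunits alone and lay between -0.047 and -0.012 with 1 library left out, the value nearest 0 being that without DMSO 3. Median-of-ratios scaling put it at -0.054 with 77 members below 0, beside -0.002 for all tested genes. No member was called higher in any setting (0 in each run that left out a library). Members called lower, 0 in the reported test, numbered 1 with library weights, with median-of-ratios scaling and with rescaling to equal FPKM sums (Ndufaf8 each time), and 2 with quantile normalization (Ndufaf8 and Cox8a). They numbered 0 to 2 with 1 library left out: 1 without DMSO 1 (Cox7a1) and 2 without DMSO 4 (Ndufaf8 and Uqcr10). Uqcrb, Cox6b1, Cox7a2l, Ndufa4, Atp5g1, Cycs, Esrra, ND3 and ND4, none of them called, had values of either sign across settings. Over the alternatives the limma adjusted p lay between 0.0336 and 0.197 for Ndufaf8, 0.0449 and 0.4405 for Cox7a1, 0.0220 and 0.402 for Uqcr10, and 0.0162 and 0.362 for ATP6. The mitochondrial DNA genes COX2, COX3 and CYTB were called lower by voom (log2 fold changes of -0.42, -0.46 and -0.25) and, over all 18 alternatives, in 3, 6 and 2 of them.

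Over the whole table, 468 genes were called higher and 244 lower. With no filter on low values these were 158 and 108, with quantile normalization 384 and 316, with voom 627 and 317. With 1 library left out they ranged from 234 to 486 and from 152 to 234: 250 and 154 without DoxSa 1, 234 and 152 without DoxSa 2, and 158 lower without DMSO 2. The cause was not tested. With the replicate number as a block, 2 members were called lower (Ndufaf8 and Cox8b). Deviations of same-numbered libraries correlated at -0.058, 0.052, -0.099 and 0.065, and those of differently numbered libraries at -0.205 to 0.154. These values showed no pairing by number over all genes together. They cannot exclude a pairing that affects part of the genes. Depth was alike in all libraries and the number of libraries, 4 per group, limits precision.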
